A study of Mus musculus with 24 samples.

Results

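Liver was compared with epididymal white adipose tissue (EWAT, the fat pad that lies along the epididymis in male mice) in animals that had received only a control antisense oligonucleotide. The samples were those whose labels carry the control codes C1 to C4: 8 samples of the 16 in the series, 4 livers and 4 fat pads, measured on 13 of its 24 arrays. All were from male C57BL/6J mice on a chow diet fed ad libitum, under a 12-hour light-dark cycle, injected intraperitoneally with control gapmer oligonucleotides, and were studied 48 hours later. A gapmer is an antisense oligonucleotide that directs cleavage of the RNA it pairs with. The other samples of the series received a gapmer against Sox6 and serve here only as a repeat of the tissue difference. Both tissues of the control group thus carry an injection, and no uninjected animal was part of the comparison. The labels give no age, and they do not say whether liver C1 and EWAT C1 came from the same mouse or whether samples were pooled, so the p-values measure the spread between these samples only.

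The 2 tissues divide the handling of fuel between them. Hepatocytes make most plasma proteins and lipoproteins, turn ammonia into urea, make glucose and ketone bodies, and turn cholesterol into bile acids, and they clear drugs through cytochrome P450 enzymes. White adipocytes store triglyceride in a single large lipid droplet, release it as fatty acids and glycerol during fasting, and secrete hormones such as leptin and adiponectin. A fat pad also holds many endothelial cells, fibroblasts, macrophages and mesothelial cells, whose RNA is part of every value given for EWAT.

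Each level is a log2 probe intensity after background correction and quantile normalization over all 24 arrays, and repeat arrays of a sample were averaged. Levels run from about 4.3 for probes at background to between 14.60 and 14.62 at the top of each sample. A positive difference means a higher level in liver. In bulk tissue, fewer cells of a type and less RNA per cell cannot be told apart. Across probes, Pearson r lay between 0.988 and 0.994 for repeat arrays of 5 samples, between 0.963 and 0.991 for samples of 1 tissue, and between 0.653 and 0.687 for a liver and a fat pad. The markers matched the labels: 15 hepatocyte markers had a median of 13.48 to 13.76 in liver samples and 4.41 to 4.59 in fat pads, while 10 adipocyte markers had one of 4.46 to 4.77 in liver samples and 10.10 to 10.61 in fat pads. EWAT C3 stood apart, since many genes of a ciliated duct epithelium were far higher in it than in the other fat pads. Differences that moved by over 1.5 times without EWAT C3 are given both ways.

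More probes were detected in fat than in liver. The share of probes with a detection p-value under 0.05 was 42.5% ± 1.05 in EWAT and 35% ± 0.917 in liver (SD, n = 4 each), a difference of -7.52 percentage points. The lowest fat pad, at 41.5%, lay above the highest liver, at 36.1% (exact two-sided permutation test, p = 0.0286, the smallest that 4 against 4 allows). The 100 brightest probes took 19.5% ± 1.02 of the summed signal in liver and 16.6% ± 2.13 in EWAT (SD, n = 4 each). These ranges overlapped, from 18.7% to 21.0% in liver and from 15% to 19.6% in EWAT (exact permutation test, p = 0.114). For the 500 brightest probes they did not overlap, with 50.5% of the signal in liver and 41.8% in EWAT (exact permutation test, p = 0.0286).

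Of 10514 genes detected in at least 1 tissue, 7318 or 69.6% passed limma's test at a Benjamini-Hochberg adjusted p under 0.05. They comprised 2879 genes higher in liver (27.4% of the genes tested) and 4439 higher in EWAT (42.2%). At least 4-fold differences among them were nearer to an even split, with 753 genes higher in liver (7.16%) and 880 higher in EWAT (8.37%). Differences of at least 32-fold among the called genes numbered 244 on the liver side and 80 on the EWAT side. The 4 livers all lay above the 4 fat pads for 25.5% of the genes, and all below them for 39.3%. Detection split the genes further: 278 were detected on every liver array and on 0 fat arrays, 650 on every fat array and on 0 liver arrays, and 6943 on all 13 arrays.

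**Figure D1:**
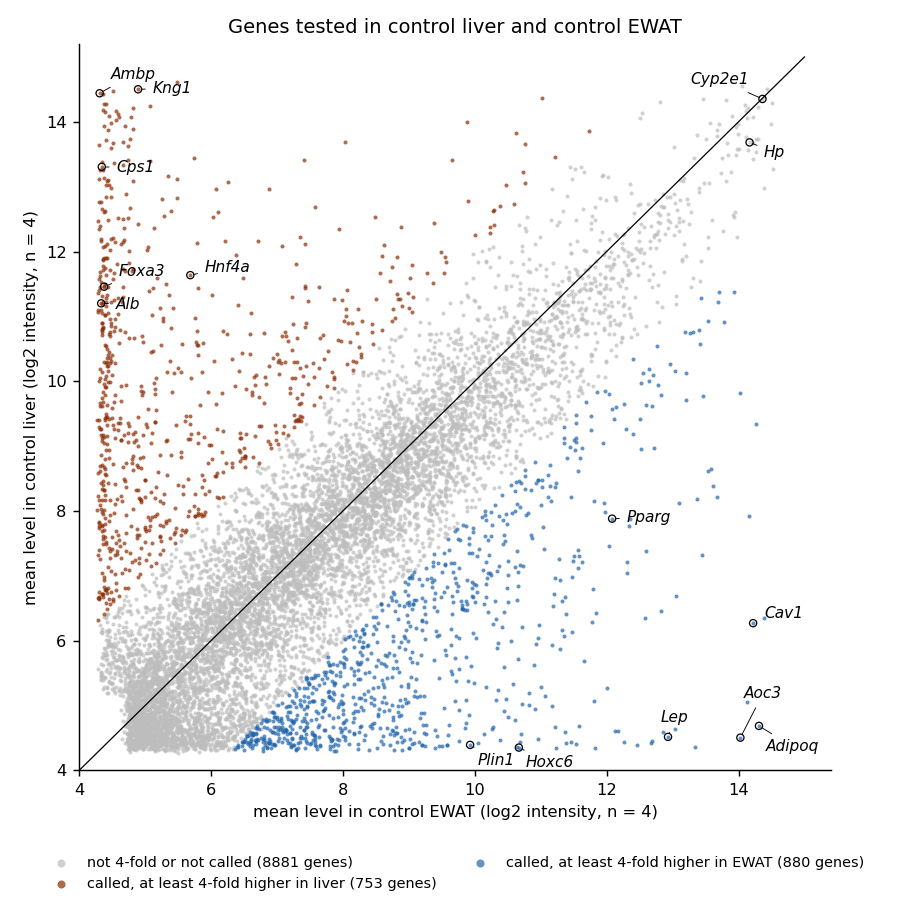
Mean log2 level of each gene tested in control EWAT (horizontal axis) and control liver (vertical axis), 4 samples each. Colours mark the 753 genes called at least 4-fold higher in liver and the 880 called at least 4-fold higher in EWAT, the line marks equal levels, and named genes are circled. The genes of liver crowd the left edge, at background in fat, up to the top of the scale.

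The split between the tissues moved with the scaling. The median difference over all genes tested was -0.18, so a list with no tendency of its own lies slightly on the EWAT side. It was -0.61 with median scaling, where 20.7% of the called genes were higher in liver in place of 39.3%, and 0.05 when each tissue was normalized on its own, where 53.0% were. Among the at least 4-fold calls the share higher in liver was 46.1%, against 32.6% with median scaling and 54.2% with each tissue on its own. Each of the 4 chips held both tissues. The difference had the same sign on all 4 chips for 2799 of the 2879 genes higher in liver and for 4323 of the 4439 higher in EWAT. These genes were called from the same arrays, so most of this agreement was set by the choice of genes. Livers C1, C2 and C3 were each split over chips, so the chips are not independent repeats. In the 8 samples given the Sox6 oligonucleotide, 98.7% of the genes higher in control liver and 99.1% of those higher in control EWAT had the same sign, and 90.0% and 88.3% passed the same test. Of the at least 4-fold genes, 99.5% and 99.9% passed it there. A test of whether the tissue difference itself depended on the oligonucleotide called 5 genes of 10514, namely Abcf1, Atg16l2, Fhit, Ndufv1 and Ppp4r1l-ps.

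The genes that stood furthest above fat in liver encode proteins that hepatocytes secrete into plasma. Where every array of the dimmer tissue was below background, the fold is given as a lower bound set by the lowest detectable signal of those arrays. Where at least 1 of them detected the gene, the measured difference is given, and it rests in part on values near background. Hpx, hemopexin, which binds free heme, read 14.56, 14.43, 14.45 and 14.48 in livers C1 to C4 and 4.43, 4.40, 4.67 and 4.58 in the 4 fat pads, where it was detected on 0 of 5 arrays. It was at least 870-fold higher in liver (limma adjusted p = 1.2e-13). Ambp, the precursor of alpha-1-microglobulin and bikunin, was at least 849-fold higher and Serpina1c, an alpha-1-antitrypsin, at least 845-fold higher. Fga, the fibrinogen alpha chain, read 14.38, 14.20, 14.26 and 14.25 in liver and 4.30, 4.45, 4.33 and 4.44 in fat, at least 754-fold apart. Ahsg, fetuin-A, followed with at least 753-fold. The other genes among the 10 with the largest differences were Apoa2, Kng1, Apoa1, Mup6 and Ttr, with differences of 9.48 to 9.61, and each was detected on 1 to 3 of the 5 fat arrays. Kng1, kininogen, read 5.64 in EWAT C2 against 4.40 to 4.80 in the other fat pads. These genes lie at the top of the scale in liver, where little room is left above them, and their groups were far apart in every sample. Alb, serum albumin, read 11.40, 11.24, 11.28 and 10.88 in liver and 4.30 to 4.36 in fat, at least 89.9-fold apart (limma adjusted p = 7.81e-12).

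On the side of fat the list was led by genes of the adipocyte. Adipoq, adiponectin, read 14.45, 14.31, 14.15 and 14.34 in the 4 fat pads and 4.34, 4.44, 4.41 and 5.55 in livers C1 to C4. The difference was -9.62 (SE 0.24, limma adjusted p = 1.22e-10). Liver C4 alone carried detectable Adipoq, at 5.49 and 5.62 on its 2 arrays. Aoc3, a semicarbazide-sensitive amine oxidase of the adipocyte surface, followed with a difference of -9.52, and Cidec, which fuses lipid droplets, with -9.07. Aoc3 was also highest in liver C4, at 4.92 against 4.32 to 4.41 in the other livers. Of 63 genes with a mean over 9 in EWAT that were at least 4-fold higher there and detected on at most 2 liver arrays, liver C4 was the highest liver for 19 and liver C1 for 22, and 1 lay over 1 log2 unit above the other livers in C4. Rgcc, a regulator of the cell cycle, read 13.55, 13.47, 12.91 and 13.46 in fat and 4.31 to 4.41 in liver, at least 314-fold apart. Lep, leptin, read 12.61, 13.20, 12.71 and 13.20 in fat and 4.35 to 4.83 in liver, at least 235-fold apart (limma adjusted p = 1.8e-11). The remaining genes of the leading 10 were Sncg, gamma-synuclein, with -8.41, Prkar2b, a regulatory subunit of protein kinase A, with -8.26, Plin4, a perilipin, with -8.04, Cav1, caveolin-1, with -7.95, and Chst1, a sulfotransferase, with at least 199-fold. None of the 10 overlapped between tissues, and all were detected on each of the 5 fat arrays.

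The promoters of 3 liver genes and 2 fat genes are shown as examples of the letters counted over whole gene sets afterwards. Each runs from 250 bases before the annotated start to 50 after it, 5′ to 3′ on the gene's strand, from RefSeq on assembly GRCm38.p6. Capitals mark matches to GTTAAT, the core of the site of the hepatocyte nuclear factor HNF1, or to TTGCNNAA, a site of the C/EBP family, on either strand. In the Alb promoter (chr5:90460620-90460919, plus strand) the HNF1 core begins 32 bases before the start and a C/EBP match 94 bases before it. The Fga promoter (chr3:83025903-83026202, plus strand) holds them at 43 and 135 bases before the start, and Serpina1c (chr12:103904901-103905200, minus strand) has an HNF1 core at 27 bases. Plin1 (chr7:79732727-79733026, minus strand), the perilipin that coats the large droplet, has C/EBP matches at 187 and 58 bases before the start. Lep (chr6:29059971-29060270, plus strand) has one at 55 bases that reads the same on both strands.
Alb: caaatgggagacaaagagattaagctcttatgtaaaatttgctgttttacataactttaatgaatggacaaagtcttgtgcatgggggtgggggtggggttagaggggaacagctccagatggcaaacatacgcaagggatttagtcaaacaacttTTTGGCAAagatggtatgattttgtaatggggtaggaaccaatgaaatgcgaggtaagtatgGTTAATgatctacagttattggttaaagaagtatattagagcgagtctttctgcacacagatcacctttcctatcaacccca
Fga: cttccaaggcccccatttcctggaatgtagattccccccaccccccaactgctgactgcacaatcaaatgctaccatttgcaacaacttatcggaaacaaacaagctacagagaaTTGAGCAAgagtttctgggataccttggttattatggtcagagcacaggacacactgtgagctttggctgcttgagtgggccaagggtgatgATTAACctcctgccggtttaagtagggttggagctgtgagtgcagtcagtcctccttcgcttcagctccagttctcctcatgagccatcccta
Serpina1c: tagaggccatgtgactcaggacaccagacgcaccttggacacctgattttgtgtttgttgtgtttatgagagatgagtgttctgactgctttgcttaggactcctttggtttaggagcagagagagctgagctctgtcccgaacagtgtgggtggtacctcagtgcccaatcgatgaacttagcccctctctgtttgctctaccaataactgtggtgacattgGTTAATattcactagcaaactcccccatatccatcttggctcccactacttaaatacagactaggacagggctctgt
Plin1: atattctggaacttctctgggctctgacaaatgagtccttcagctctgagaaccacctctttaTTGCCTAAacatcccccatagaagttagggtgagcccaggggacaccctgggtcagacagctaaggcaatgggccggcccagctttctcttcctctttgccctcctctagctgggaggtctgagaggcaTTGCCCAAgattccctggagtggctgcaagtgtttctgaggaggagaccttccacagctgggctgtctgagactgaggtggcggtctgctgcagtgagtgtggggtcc
Lep: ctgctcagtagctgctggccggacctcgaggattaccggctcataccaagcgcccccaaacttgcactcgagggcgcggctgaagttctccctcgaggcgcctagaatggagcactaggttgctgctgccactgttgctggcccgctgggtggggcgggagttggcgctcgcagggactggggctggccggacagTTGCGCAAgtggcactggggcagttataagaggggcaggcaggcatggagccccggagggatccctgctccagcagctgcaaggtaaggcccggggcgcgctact

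The same letters were counted in the RefSeq promoters of each gene set, as a description without a test. GTTAAT or its complement was found in 37 of 203 promoters of genes at least 32-fold higher in liver (18.2%). Its share was 11.1% of 606 for genes at least 4-fold higher in liver, 3.19% of 658 for genes at least 4-fold higher in EWAT, 4.33% over the genes tested and 7.20% over the promoters of 27025 genes. The C/EBP letters were found in 23.2%, 15%, 9.57%, 8.52% and 10.8% of the same sets, and TATAAA in 21.7%, 15.3%, 10.9%, 7.94% and 14.2%. In the 65 promoters of genes at least 32-fold higher in EWAT the shares were 3.08% for GTTAAT, 13.8% for the C/EBP letters and 13.8% for TATAAA. Matches on both strands were counted, different motifs can overlap in part, and a match says only that the letters are present. Promoters of related genes were each counted, among them the Serpina1 genes and major urinary proteins of the liver sets. Such promoters are not independent of each other, and their part in the shares was not tested. Base composition differed between the sets. The median share of G and C was 49.3% in the at least 32-fold liver set and 59.3% in that of EWAT. It was 60.7% over the genes tested and 52.7% over all promoters. All 3 motifs hold more A and T than G and C, and the part of base composition in these shares was not tested. The ratio of observed to expected CpG dinucleotides had a median of 0.223 in the promoters of genes at least 32-fold higher in liver, 0.372 in the at least 4-fold set of liver, 0.640 in that of EWAT and 0.753 over the genes tested. It was 0.438 in the at least 32-fold set of EWAT. A ratio above 0.6 was found in 12.3% of the at least 32-fold liver promoters, in 33.8% of those of EWAT and in 69.6% of those of the genes tested. The Lep promoter has a ratio of 0.590 and the 4 others shown lie between 0.0862 and 0.272.

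**Figure D2:**
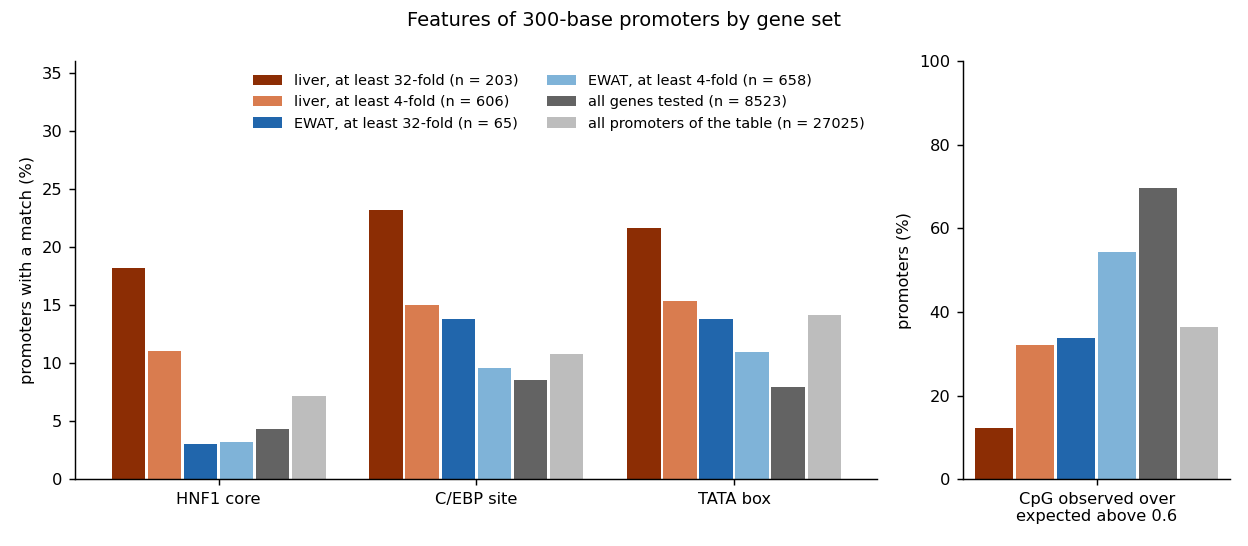
Share of 300-base promoters (percent) that hold an HNF1 core, a C/EBP site or a TATA box (left), or whose ratio of observed to expected CpG lies above 0.6 (right), by gene set. Bars start at 0 and the legend gives the number of promoters. The HNF1 core is found in 18.2% of the promoters at least 32-fold higher in liver and in 3.08% of those at least 32-fold higher in EWAT. The median share of G and C in these sets was 49.3% and 59.3%. Promoters of related genes were each counted.

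Gene lists were read against these backgrounds. Their members entered the test when they were detected in at least 1 tissue, so that a gene seen in a single tissue was bound to differ, and the counts are descriptions. Over all genes tested, 27.4% were called higher in liver and 42.2% in EWAT. Counts near these shares do not set a list apart. Of 36 lists, 18 had a median difference above 0 and 18 below it. The medians ran from 9.39 for the major urinary proteins to -4.82 for the mature adipocyte genes, beside -0.18 over the genes tested.

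**Figure D3:**
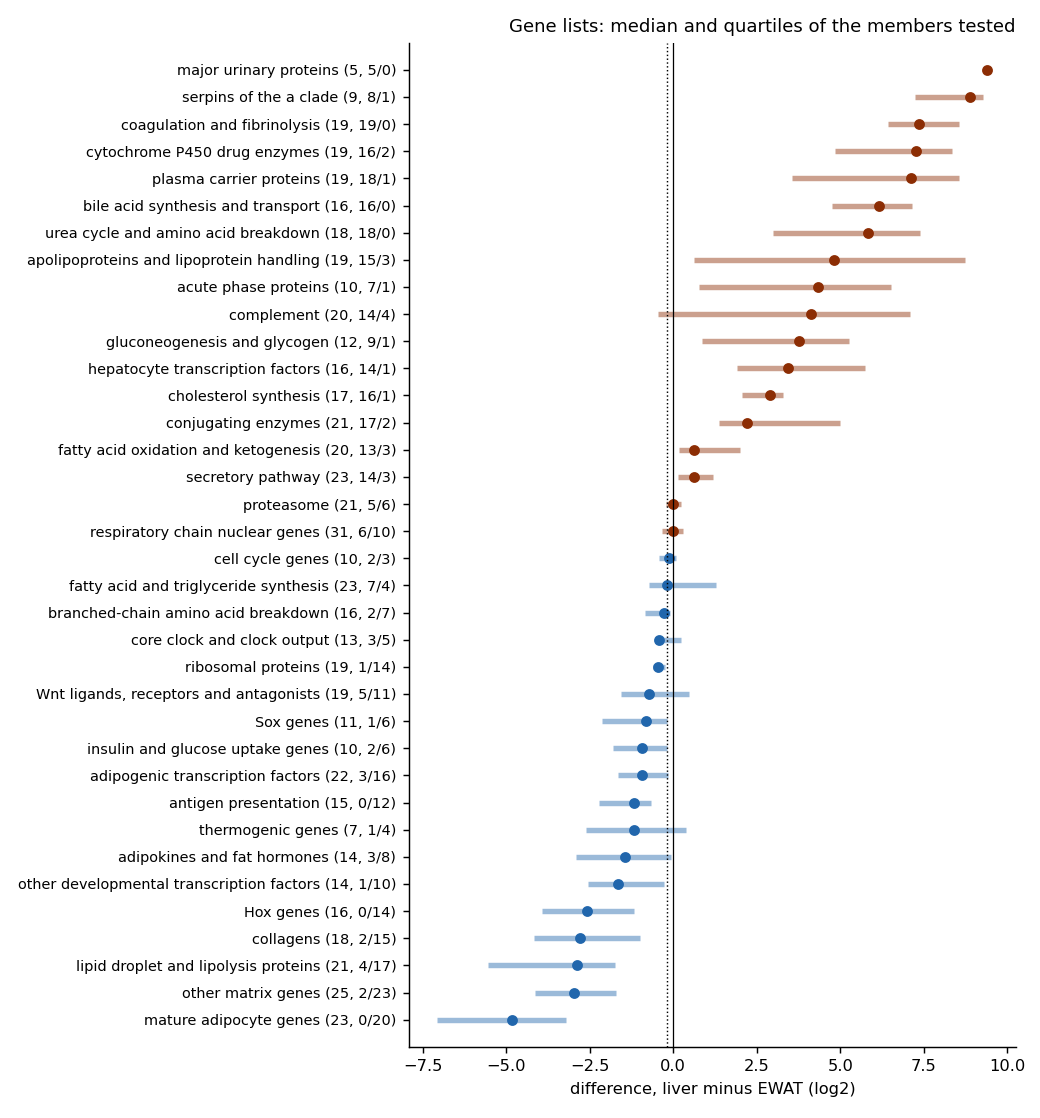
Median (point) and quartiles (bar) of the log2 difference, liver minus EWAT, over the tested members of each gene list, in order of the median. Numbers in brackets give the members tested, those called higher in liver and those called higher in EWAT. The solid line marks 0 and the dotted line the median of -0.18 over the genes tested.

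Plasma proteins were mostly higher in liver. Of 20 genes listed as plasma carriers 19 could be tested, and 18 were higher in liver and 1 in EWAT, with a median difference of 7.11 (6.78 with bounded genes at their bound). The exception was Hp, haptoglobin, which binds free hemoglobin and is made by both tissues. Hp read 13.67, 13.52, 13.81 and 13.74 in liver and 13.85, 14.18, 14.24 and 14.40 in fat, a difference of -0.48 (SE 0.12, limma adjusted p = 0.0048) without overlap, which turned to 0.41 when each tissue was normalized on its own. All 19 tested genes of coagulation and fibrinolysis were higher in liver, with a median of 7.35. Plg, plasminogen, was at least 405-fold higher and F2, prothrombin, at least 403-fold. Among acute phase proteins 7 of 10 were higher in liver and 1 in EWAT. Hamp, hepcidin, the hormone that limits iron uptake, was at least 486-fold higher in liver and Crp 7.90 higher on the log2 scale. The 5 tested major urinary proteins, pheromone carriers of mice, and 8 of 9 clade A serpins were higher in liver. Their members are near-identical copies, and probes may not tell them apart.

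Complement genes moved in both directions. Of 20 tested genes 14 were higher in liver and 4 in EWAT, with a median of 4.13. On the liver side C9, of the lytic complex, differed by 7.69, Cfi, the protease factor I, by 7.55 (8.29 without EWAT C3), and C4bp, which binds C4b, was at least 143-fold higher. Cfi read 7.48 in EWAT C3 against 4.42 to 4.63 in the other fat pads. The 4 genes higher in EWAT were C1qa, C1qb, C2 and Cfp, of which the C1q chains and Cfp, properdin, are known products of macrophages. Cfp read 9.56, 8.30, 8.35 and 8.76 in liver and 10.40, 10.34, 10.25 and 9.64 in fat, a difference of -1.42 (SE 0.27, limma adjusted p = 0.000915). Liver C1 was the highest liver and EWAT C4 the lowest fat pad, and the macrophage marker list moved the same way, with a median of 7.82 in liver C1 against 6.59 to 7.14 in the other livers and 6.98 in EWAT C4 against 7.98 to 8.57 in the other fat pads. The part of macrophage content in the difference was not tested.

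Apolipoproteins and the enzymes that act on them also parted. Of 19 tested genes 15 were higher in liver and 3 in EWAT, with a median of 4.81. The structural proteins of lipoproteins lay in liver: Apoa2 and Apoa1 led, Apoc3 differed by 9.12 and Apoc4 was at least 498-fold higher. Lpl, lipoprotein lipase, which splits the triglyceride of lipoproteins at the capillary wall, was on the fat side. It read 14.27, 14.22, 14.36 and 14.24 in fat and 10.46, 9.15, 8.72 and 9.05 in liver, a difference of -4.93 (SE 0.30, limma adjusted p = 1.81e-07). Gpihbp1, which carries Lpl across the endothelium, differed by -2.43 and Angptl4, its inhibitor, by -2.22.

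The metabolic pathways of liver showed the same direction in most members. Of 18 tested genes of the urea cycle and amino acid breakdown, 18 were higher in liver, with a median of 5.83. Cps1, the mitochondrial enzyme of the first step of the urea cycle, read 13.35, 13.31, 13.29 and 13.27 in liver and 4.31 to 4.37 in fat, at least 387-fold apart (limma adjusted p = 1.05e-13). Arg1, arginase, which releases urea, differed by 9.11, and Hgd, of tyrosine breakdown, was at least 219-fold higher. In gluconeogenesis and glycogen handling 9 of 12 were higher in liver and 1 in EWAT, with a median of 3.77. Fbp1, fructose-1,6-bisphosphatase, differed by 7.23 (7.99 without EWAT C3), and its level was 7.67 in EWAT C3 against 4.6 to 4.68 in the other fat pads. G6pc, which releases free glucose, read 10.38 in liver C1 and 12.65, 12.32 and 11.95 in livers C2 to C4, against 4.59 to 5.0 in fat. The exception was Pcx, pyruvate carboxylase, which feeds gluconeogenesis in liver and fatty acid synthesis in fat, with a difference of -0.92. Pck1, which makes phosphoenolpyruvate for glucose in liver and for glycerol in fat, did not pass the test, with 9.28 ± 0.48 in liver and 9.20 ± 0.43 in EWAT (SD, n = 4 each, difference 0.08, 95% interval -0.50 to 0.67).

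All 16 tested genes of bile acid synthesis and transport were higher in liver, with a median of 6.16. Slc27a5, which joins bile acids to coenzyme A, was at least 319-fold higher, Slco1b2, an uptake carrier, at least 280-fold, and Cyp8b1, the sterol 12-alpha-hydroxylase, at least 242-fold. Of 19 tested drug-metabolizing cytochrome P450 genes 16 were higher in liver and 2 in EWAT, with a median of 7.28. Cyp2d9 differed by 9.07 and Cyp3a11 was at least 373-fold higher in liver. Cyp1b1, a P450 known from stromal and endothelial cells, went the other way. It read 9.42, 8.38, 8.99 and 8.44 in fat and 4.40 to 4.90 in liver, a difference of -4.14 (SE 0.23, limma adjusted p = 8.24e-08). Of 21 conjugating enzymes 17 were higher in liver and 2 in EWAT. Ugt2b36, a glucuronosyltransferase, was at least 375-fold higher in liver. Nnmt, which methylates nicotinamide, was higher in fat by a difference of -1.74 (limma adjusted p = 3.47e-05), with 10.64 to 11.75 in liver and 12.78 to 13.32 in fat.

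Most genes of cholesterol synthesis were higher in liver. Of 17 tested genes 16 were higher in liver and 1 in EWAT, with a median of 2.91. Each of the 17 was detected on at least 1 array of both tissues. Fdps, farnesyl diphosphate synthase, read 12.51, 12.56, 12.65 and 12.43 in liver and 8.59, 8.29, 8.19 and 8.89 in fat, a 16.5-fold difference (limma adjusted p = 2.22e-09). Tm7sf2 and Dhcr7, reductases of the late steps, differed by 3.96 and 3.48. Mvk, mevalonate kinase, was the exception with -0.77, from levels near background in both tissues. Fatty acid oxidation and ketogenesis divided less: of 20 tested genes 13 were higher in liver and 3 in EWAT, with a median of 0.63. Bdh1, which makes the ketone body 3-hydroxybutyrate, differed by 6.29. Acadm, the medium-chain acyl-CoA dehydrogenase used by both tissues, was higher in fat at -0.49 and turned to 0.47 when each tissue was normalized on its own.

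Transcription factors of hepatocytes and of adipocytes were mostly higher in their own tissue. Of 16 tested hepatocyte factors 14 were higher in liver and 1 in EWAT, with a median of 3.43. Foxa3, a pioneer factor of liver genes, was at least 107-fold higher, and Nr1h4, the bile acid receptor, differed by 5.97. Hnf4a, the nuclear receptor that holds many hepatocyte genes active, read 11.69, 11.59, 11.55 and 11.71 in liver and 4.97, 4.84, 8.10 and 4.83 in fat, a difference of 5.95 (SE 0.63, limma adjusted p = 1.23e-05) that was 6.76 without EWAT C3. Cebpa, which both hepatocytes and adipocytes use, was the member on the fat side, with 8.41 to 8.89 in liver and 9.46 to 9.93 in fat and a difference of -1.06 (limma adjusted p = 7.56e-05). Of 22 tested adipogenic factors 16 were higher in EWAT and 3 in liver, with a median of -0.94. Pparg, the master regulator of adipocytes, read 12.33, 12.08, 11.78 and 12.14 in fat and 7.45, 8.24, 8.03 and 7.80 in liver, an 18.4-fold difference (limma adjusted p = 7.32e-09). Ebf1 and Ebf2, early B-cell factors that act in the adipose lineage, differed by -3.93 and by at least 9.07-fold. Cebpb, induced early in adipogenesis and in the acute phase response of liver, was higher in liver by 1.0.

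Lipid droplet proteins were mostly higher in fat. Of 21 tested genes 17 were higher in EWAT and 4 in liver, with a median of -2.89. After Cidec, Plin4 and Cav1 came Plin1, which was detected on 0 of 8 liver arrays and was at least 29.4-fold higher in fat, with 9.83, 10.01, 9.73 and 10.14 in the 4 fat pads. The lipases of fat breakdown went with them: Pnpla2, adipose triglyceride lipase, read 13.73 to 14.21 in fat and 9.78 to 9.86 in liver, an 18.5-fold difference, and Lipe, hormone-sensitive lipase, was 35.1-fold higher, though only 1 of 8 liver arrays detected it. The members higher in liver were Cideb, with 5.66 (6.38 without EWAT C3), Fitm1, Plin5 and Plin2. Cideb lies on lipoprotein precursors in hepatocytes, and it read 7.43 in EWAT C3 against 4.50 to 4.57 in the other fat pads. Of 23 tested genes of the mature adipocyte 20 were higher in EWAT and 0 in liver, with a median of -4.82 (-4.20 with bounded genes at their bound). The 3 that did not pass were Pck1, Scd1 and Gpd1. Fabp4, which carries fatty acids in adipocytes, was 70.5-fold higher in fat and was detected on 1 of 8 liver arrays. Of 14 adipokines and fat hormones 8 were higher in EWAT and 3 in liver, and the latter were Fgf21, Rbp4 and Igf1, hormones and carriers that liver is known to secrete.

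Synthesis of fatty acids and triglyceride was shared. Of 23 tested genes 7 were higher in liver, 4 in EWAT, and 12 did not pass, with a median of -0.19, close to that over the genes tested. Fads2, the delta-6 desaturase, differed by 4.38 and Elovl6, an elongase, by 3.04, with 9.68 to 10.78 in liver and 6.80 to 7.86 in fat. Scd2, a stearoyl-CoA desaturase, was on the fat side with -2.31 and was detected on 2 of 8 liver arrays. Lpin2, a phosphatidate phosphatase, differed by 3.20. Dgat1, which makes triglyceride, led on the fat side with 10.45, 10.08, 10.08 and 10.73 against 6.98 to 7.13 in liver, a difference of -3.27 (SE 0.15, limma adjusted p = 1.5e-08). Scd1, the stearoyl-CoA desaturase, and Cyp2e1, an ethanol-oxidizing P450, were near the top of the scale in both tissues. Cyp2e1 read 14.32, 14.33, 14.37 and 14.39 in liver and 14.46, 14.34, 14.31 and 14.35 in fat (difference -0.011, limma adjusted p = 0.902). Scd1 read 14.33 to 14.42 in liver and 14.30 to 14.50 in fat (limma adjusted p = 0.947). Both tissues have means over 14 for 11 genes, close to the top of the scale, where a difference may be hidden. When each tissue was normalized on its own, Cyp2e1 and Scd1 were higher in liver by 0.80 and 0.81 and passed the test (limma adjusted p = 2.33e-06 and 3.31e-06). That setting also moved Acadm, which is dimmer, from -0.49 to 0.47 and the median of the ribosomal proteins from -0.46 to 0.36. The part of the top of the scale in the values of Cyp2e1 and Scd1 was not tested.

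Pairs of genes that encode the same activity showed the division directly. Of 30 pairs of isozymes or carriers with a textbook liver form and another form, 17 had both members tested. The liver form was higher in liver and the other form higher in EWAT in 10 pairs, and the reverse held in 0. By the rate of calls over all genes, 27.4% toward liver and 42.2% toward EWAT, these counts describe the pairs only, since they were chosen for their known tissues. For entry of glucose, Slc2a2, the low-affinity transporter GLUT2, was at least 91.1-fold higher in liver, and Slc2a4, the insulin-responsive GLUT4, at least 13.2-fold higher in EWAT. Slc2a4 read 8.83, 8.78, 8.33 and 9.16 in the fat pads and was detected on 0 of 8 liver arrays. For pyruvate kinase, the last step of glycolysis, Pklr was at least 6.86-fold higher in liver and Pkm 14.9-fold higher in EWAT. Glycogen showed the same: Gys2 differed by 4.67 and Gys1 by -0.86 among the synthases, and Pygl by 1.02 and Pygb by -5.25 among the phosphorylases. Pygb read 11.14, 11.27, 10.98 and 11.32 in fat and 6.24, 5.76, 5.79 and 5.93 in liver, a 38.0-fold difference (limma adjusted p = 1.1e-10).

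Lipid pairs were among the 10. Slc27a2 read 13.13 to 13.22 in the livers and 4.43, 4.33, 8.31 and 4.32 in the fat pads, where C3 was the high one. Its difference was 7.82 with all samples and 8.81 without EWAT C3, while Slc27a1, the fatty acid transporter of fat and muscle, differed by -5.69. Aqp9, which lets glycerol into hepatocytes, differed by 6.34 (7.01 without EWAT C3), and Aqp7, which lets it out of adipocytes, was at least 17.8-fold higher in EWAT. Plin2 was higher in liver by 0.82 and Plin1 higher in fat, Cideb higher in liver and Cidec in fat, and Ppara, the receptor that drives fatty acid oxidation, was at least 3.24-fold higher in liver opposite Pparg. Among iron importers Tfr2, an iron sensor of hepatocytes, differed by 5.91 and Tfrc, the general transferrin receptor, by -1.07. The other 7 pairs were not opposite. In 2 of them both members were higher in EWAT: Pfkl and Pfkp of phosphofructokinase, and Dgat2 and Dgat1. In 4 the liver form was higher in liver and the other form did not pass: Fbp1 and Fbp2, Cpt1a and Cpt1b, Lpin2 and Lpin1, and Cox7a2 and Cox7a1. For the stearoyl-CoA desaturases Scd2 was higher in EWAT and Scd1 did not pass.

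**Figure D4:**
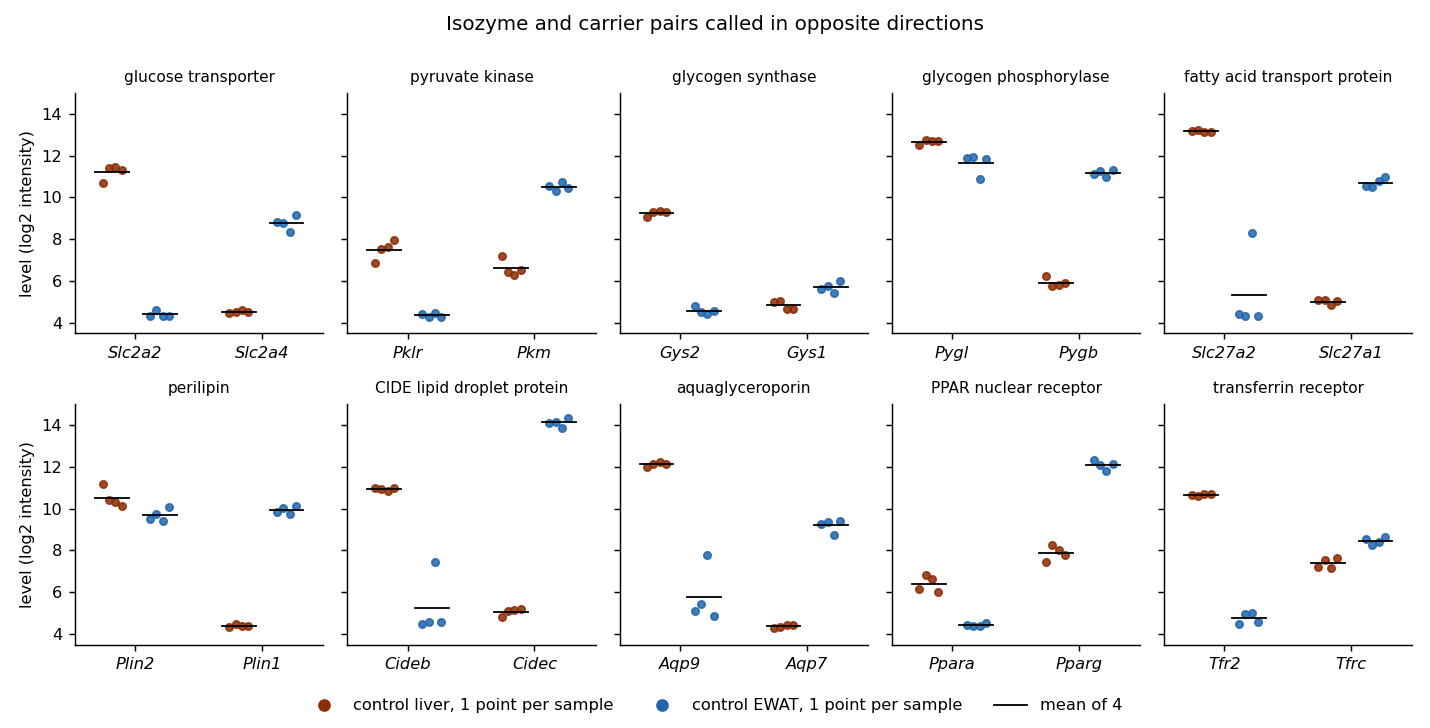
Log2 level of both members of the 10 pairs called in opposite directions, the textbook liver form on the left of each panel and the other form on the right. Points are samples, red for control liver and blue for control EWAT, and lines are means of 4. The single high fat pad for Slc27a2, Cideb and Aqp9 is EWAT C3, at 8.31, 7.43 and 7.78.

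Extracellular matrix was higher in fat. Of 18 tested collagens 15 were higher in EWAT and 2 in liver, with a median of -2.80, and of 25 other matrix genes 23 were higher in EWAT and 2 in liver, with a median of -2.97. Col4a1, of the basement membrane that surrounds each adipocyte and capillary, read 12.21, 12.57, 12.21 and 12.36 in fat and 8.35, 7.90, 7.49 and 7.31 in liver, a 23.8-fold difference (limma adjusted p = 1.35e-08). Col15a1 and Col6a1 differed by -4.65 and -4.36. Sparc, a collagen-binding protein, differed by -4.92, Fbln2 by -4.83 and Nid1, nidogen, by -4.75. Exceptions were matrix proteins of plasma: Vtn, vitronectin, read 13.63 to 13.76 in liver and 7.42 to 8.40 in fat, a difference of 5.66 (SE 0.18, limma adjusted p = 7.84e-10), and Fn1, fibronectin, differed by 2.26. Col27a1 was at least 2.97-fold higher in liver.

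Genes of body position were mostly higher in fat. Hox genes record position along the body axis, and 16 of the 31 listed could be tested. Of these 14 were higher in EWAT and 0 in liver, with a median of -2.57. However, 8 of the 16 were below background on every liver array. Those 8 entered the test through EWAT alone, so their direction was set by the filter. Hoxc6 read 10.82, 10.97, 10.39 and 10.49 in fat and 4.27 to 4.44 in liver, where it was detected on 0 of 8 arrays, and was at least 49.0-fold higher in fat (limma adjusted p = 5.48e-11). Hoxa7 was at least 15.6-fold higher and Hoxb7, detected on 1 of 8 liver arrays, 20.1-fold. Hoxb7 was highest in EWAT C3, at 9.89 against 8.44 to 8.94. Of 14 other developmental factors 10 were higher in EWAT and 1 in liver, with Meox2, a mesoderm homeobox gene, at least 14.3-fold higher. Among 11 tested Sox genes 6 were higher in EWAT and 1 in liver, beside 42.2% and 27.4% over all genes tested. Those higher in EWAT were led by Sox7, Sox18 and Sox17, factors of endothelium, with -3.69, -2.92 and -2.64. The gene higher in liver was Sox5, with 0.98. Sox6 itself, the target of the study's other oligonucleotide, read 5.09, 5.63, 5.08 and 5.38 in liver and 5.71, 5.75, 5.13 and 5.46 in fat. These values overlapped, and the difference of -0.22 (95% interval -0.62 to 0.19, limma adjusted p = 0.308) did not pass. They lay near background in both tissues, and 7 of 8 liver arrays detected the gene. The lowest detected signal of a control array lay between 4.68 and 5.15. So close to it a difference can be understated, and equal levels in the 2 tissues were not shown.

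Wnt signalling, which restrains adipogenesis and patterns the liver lobule, showed both directions. Of 19 tested ligands, receptors and antagonists 11 were higher in EWAT and 5 in liver, with a median of -0.72. The shares over all genes tested were 42.2% and 27.4%. Wnt5a was at least 4.51-fold higher in fat and Wnt2, a ligand known from liver sinusoidal endothelium, at least 2.54-fold higher in liver. Sfrp1, a secreted antagonist, differed by -2.78 (-2.13 without EWAT C3), and its level was 9.65 in EWAT C3 against 6.61 to 7.74 in the other fat pads.

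Among lists of general cell machinery, the respiratory chain and the proteasome differed little. Nuclear genes of the respiratory chain had a median of 0.00 over 31 tested, with 6 higher in liver and 10 in EWAT, and the proteasome had 0.00 over 21, with 5 and 6. Ribosomal proteins lay toward EWAT, with 14 of 19 higher there, 1 higher in liver and a median of -0.46, which turned to 0.36 when each tissue was normalized on its own. Rplp2 differed by -1.33. The secretory pathway lay toward liver, with 14 of 23 higher there and 3 in EWAT and a median of 0.61. Sar1b, the GTPase of large lipoprotein carriers, read 11.85 to 12.13 in liver and 9.91 to 10.10 in fat, a 3.98-fold difference. Lman1, a cargo receptor for clotting factors, differed by 1.92 and Calr, calreticulin, by 1.5. Of 16 genes of branched-chain amino acid breakdown 7 were higher in EWAT and 2 in liver, beside 42.2% and 27.4% over all genes tested. Bcat2, the transaminase of the first step, which hepatocytes are known to lack, differed by -3.30, and Ppm1k, the phosphatase that activates the next enzyme, by 1.96. Of 7 tested thermogenic genes 4 were higher in EWAT and 1 in liver. Cox8b read 10.17, 8.80, 7.94 and 9.27 in the fat pads and was at least 15.9-fold higher there, and Elovl3, the exception, was at least 9.86-fold higher in liver. Of 13 clock genes 5 were higher in EWAT and 3 in liver, counts near the shares over all genes tested. Per1 had the largest difference, with -1.28. It read 6.71 in liver C1, 8.26 to 8.70 in the other livers and 8.94 to 9.76 in fat. Insulin and glucose uptake genes gave 6 of 10 higher in EWAT and 2 in liver.

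Markers of other cells moved with the tissue as well. Their counts stand beside 42.2% of all genes tested called higher in EWAT and 27.4% in liver. All 10 tested endothelial markers were higher in EWAT, Cldn5 and Esam by -3.50 and -2.92, while 5 of 8 markers of the liver's sinusoidal endothelium were higher in liver and 2 in EWAT. Clec4g, a lectin of sinusoidal endothelium, read 10.86, 10.51, 10.52 and 10.47 in liver and 4.35 to 4.83 in fat, a 63.3-fold difference with 1 of 5 fat arrays above background. Kupffer cell markers gave 6 of 8 higher in liver and 2 in EWAT, with Slc40a1, the iron exporter, at 3.82 and Vsig4 at 3.66. Of 8 general macrophage markers 5 were higher in EWAT and 1 in liver. Lyz2, lysozyme, read 10.51, 11.12, 10.80 and 8.56 in fat and 8.48, 7.41, 7.13 and 7.41 in liver, so that EWAT C4 was low among fat pads and liver C1 high among livers. Fibroblast markers gave 9 of 10 higher in EWAT and 1 in liver, mesothelial markers 8 of 8 in EWAT and smooth muscle markers 7 of 7. Col3a1 differed by -4.21, Upk3b, of mesothelium, by -4.18 and Acta2, of smooth muscle, by -5.27. The median of the mesothelial list was 7.76 in EWAT C2 against 5.92 to 6.48 in the other fat pads, and that of the smooth muscle list 5.93 against 7.28 to 8.12. The marker lists of T cells, B cells and neutrophils had medians of 4.40 to 4.86 in all 8 samples, near background.

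Antigen presentation went with fat, where 12 of 15 tested genes were higher and 0 were higher in liver, with a median of -1.17. The class II genes had the largest differences, H2-Eb1 with -2.89, H2-Aa with -2.62 and Cd74, the invariant chain, with -2.58. H2-Aa read 11.31, 10.54, 11.36 and 9.51 in fat and 9.03, 7.65, 7.69 and 7.86 in liver. It was lowest in EWAT C4 and highest in liver C1, the samples that were low and high in the macrophage list. The part of these cells in the difference was not tested.

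EWAT C3 carried many genes of an epithelium at levels far above those of the other fat pads. Of the 13 listed markers of a ciliated duct epithelium, 12 were detected in this sample, and the list's median was 8.16 in it against 4.43 to 4.57 in the other 3 fat pads. Cdh16, a kidney-type cadherin, read 10.15 in C3 and 4.36 to 4.40 in the others. Rsph1 and Tekt1, of motile cilia, read 9.77 and 8.16 in C3, against 4.65 to 5.09 and 4.25 to 4.31. Foxj1, Ccdc39 and Dnah5 were dimmer in C3, at 6.03, 5.37 and 5.13, and Dnah9 was not detected there. Pax8 and Epcam were detected in C3 but near background, at 4.75 and 4.68, against 4.47 to 4.73 and 4.27 to 4.30 in the others. Lrp2, megalin, read 10.50 in C3 against 4.76 to 6.38, and Lcn2 12.13 against 5.44 to 6.11. Several of these genes are also hepatocyte genes, so the sample lay closer to liver for them: Cldn2 read 9.83 in C3, 4.26 to 4.34 in the other fat pads and 9.11 to 9.51 in liver. Krt8 read 10.71, 5.67 to 7.75 and 11.02 to 11.37 in the same order. Of the 15 hepatocyte markers, 6 were detected in C3 and 9 were not. Apoc3 read 7.14 in C3 against 4.67 to 5.27 in the other fat pads, Hnf4a 8.10 against 4.83 to 4.97, Ass1 6.05 against 5.12 to 5.53, Ttr 5.24 against 4.28 to 4.37 and Apoa1 4.92 against 4.38 to 4.54. Cyp2e1 was bright in every fat pad. Alb and Cps1, at 4.36 and 4.34 in C3, were among the 9. The adipocyte list had a median of 10.27 in C3, within the 10.10 to 10.61 of the others. The list of epididymis markers did not set C3 apart, with a median of 4.40 in it and 4.38 to 4.41 in the others.

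**Figure D5:**
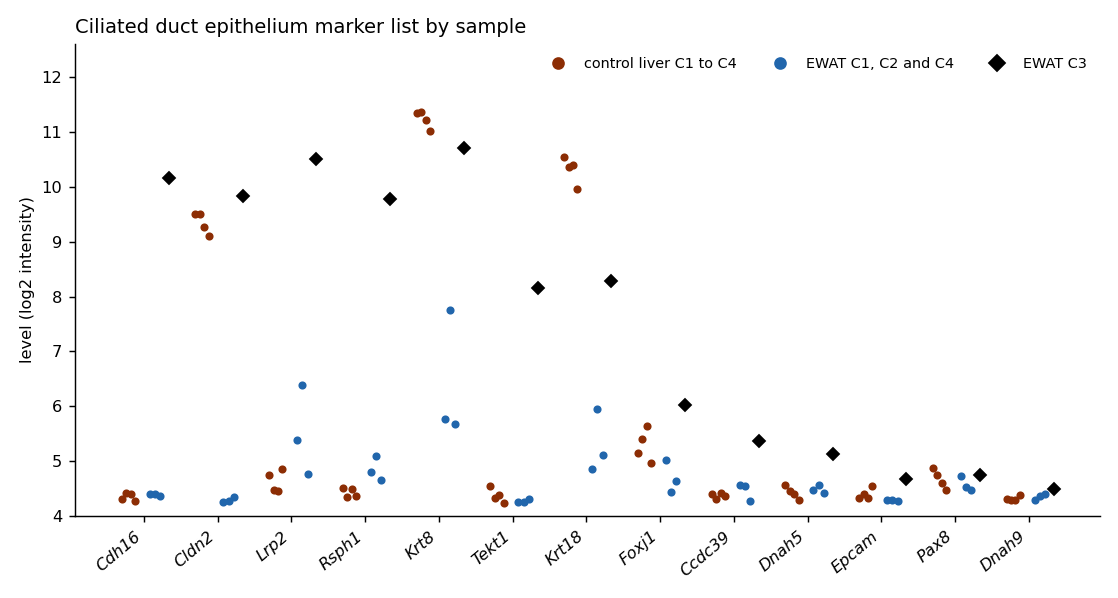
Log2 level of the 13 markers of ciliated duct epithelium in each sample, ordered by the excess in EWAT C3. Red points are the 4 livers, blue points EWAT C1, C2 and C4, and black diamonds EWAT C3. Cdh16, at 10.15 in C3, is near background in the other 7 samples, whereas Cldn2 and Krt8 are also high in liver.

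Without EWAT C3 the number of called genes was 7444, of which 7109 were among the 7318 called with it. It lost 209 and gained 335, the latter 110 higher in liver and 225 in EWAT, and 0 genes called in both turned direction. The fold moved by over 1.5 times for 68 genes called in both, 42 of them higher in liver. The difference of Cldn2 went from 3.67 to 5.05, that of Krt8 from 3.76 to 4.83 and, among genes chosen after their values were seen, that of Cdhr5 from 4.71 to 6.21 and that of Pdzk1 from 4.76 to 6.18. Lrp2, which did not pass with C3 (difference -2.13, limma adjusted p = 0.0841), passed without it at -0.88 (limma adjusted p = 0.027).

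Samples of 1 tissue also differed among themselves. The median standard deviation of a gene between the 4 samples was 0.155 in liver and 0.207 in EWAT, and it was larger in EWAT for 64.6% of the genes. This comparison is uneven, since each liver is a mean of 2 arrays and most fat pads rest on 1. With 1 array per sample and without EWAT C3 the medians were 0.185 in liver and 0.171 in EWAT, and the spread was larger in EWAT for 46.2% of the genes. The genes with the largest spread among livers were Gadd45g, Esm1, Mfsd2a, Fgf21 and Tff3. Gadd45g, a stress-induced gene, read 10.97, 8.0, 11.99 and 12.17 in livers C1 to C4, with C2 low. Mfsd2a, a lipid transporter induced by fasting, read 5.89, 8.26, 9.48 and 8.80, with C1 low. Fgf21, a hormone of the fasting liver, read 8.62, 8.26, 5.48 and 6.16, with C1 and C2 high, and Tff3, a trefoil peptide, 10.92, 7.99, 7.50 and 8.33, with C1 high. Esm1, an endothelial proteoglycan, read 8.83 in liver C1 and 5.34 to 6.54 in the others. Among fat pads the 5 were Lcn2, Lrp2, Krt8, Ccl21c and Atp1b1. For 4 of them C3 was the high sample, with Atp1b1 at 11.06 against 6.12 to 8.08. Ccl21c, a lymphoid chemokine, read 10.83, 6.63, 12.02 and 10.32 in EWAT C1 to C4, with C2 low.

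A gene's probes could point both ways. Of 3971 genes with several detected probes, 154 had at least 1 probe called higher in liver and another called higher in EWAT, and in 29 such probes lay over 2 log2 units apart. Among 2403 genes with at least 2 called probes, 2249 had all of them in 1 direction. The 5 with the widest gaps were Scara5, Adam15, Tardbp, Sema3b and Tfpi. For Scara5, a ferritin receptor, the probes differed by 4.78 and -4.0. For Adam15, a membrane protease, they ranged from 0.84 to -5.38, and for Tardbp, an RNA-binding protein, from 4.96 to -0.44. Sema3b gave 3.95 and -1.44, and Tfpi, the inhibitor of the tissue factor pathway, 3.78 and -1.27. Cp, ceruloplasmin, named after its values were seen, gave 2.18 and 2.11 on 2 probes and -2.44 on the third. For such genes the direction depends on which probe stands for the gene, and the files do not place the probes on transcripts.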

How the data were processed

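Per the labels' protocols, Trizol RNA went through RNeasy columns with DNase I treatment and a Bioanalyzer check, and the MessageAmp kit of Ambion gave the biotinylated cRNA for the bead arrays. The submitters' processing notes name GenomeStudio, with no version given in the sources used here. Each deposited intensity is a probe's signal after background subtraction and before any normalization between arrays. The authors deposited a detection p-value beside each intensity. The table the authors processed, on the log2 scale, served as an alternative; on checking, its values equal the logarithm of the signal minus its array's lowest signal plus a constant near 1, quantile normalized over the 24 arrays.

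The platform's annotation gives 1 gene for 34885 of 45281 probes, several for 18 and none for 10378, and 34807 matched RefSeq genes of GRCm38.p6. Background correction (neqc of limma 3.58.1 in R 4.3.3, which estimates background from the detection p-values, offset 16) was followed by quantile normalization over all 24 arrays. The offset understates folds of dim genes. Repeat arrays were averaged, giving 4 samples per tissue; the number of arrays limits the precision. A gene was tested when detected (p under 0.05) in at least 3 of the 4 samples of a tissue, by its brightest detected probe. Differences were tested by limma's two-sided moderated test (lmFit, then eBayes with trend) and adjusted by Benjamini-Hochberg over 10514 genes. A lower bound on a fold sets the bright tissue's mean against, per array, the higher of the probe's own value and the lowest signal among detected probes. Single values per sample were compared by exact permutation tests.

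The samples, gene lists, isozyme pairs and naming rule were chosen with earlier results of these data known. Named genes were the 10 with the largest differences per direction, up to 3 leading called members of each list and its largest exception, both members of isozyme pairs, the 5 genes with the widest gap between opposite probes, bright cell type markers, members of the duct epithelium list, 6 chosen genes, and the 5 most variable genes per tissue. Chosen after their values were seen were Angptl4, C1qb, C2, Cdhr5, Cp, F2, Fitm1, Fn1, Gpd1, Gpihbp1, Igf1, Pck1, Pdzk1, Plin5, Pnpla2 and Rbp4. Promoters of 27025 genes were searched for fixed letters. The gene test was tested on simulated data. Residual correlations between tissues were 0.011, 0.044, -0.054 and 0.168 for equal replicate numbers and -0.147 to 0.082 for unequal ones. With 4 samples per tissue they cannot settle whether equal numbers are the same mouse. Alternatives covered normalization, background, offset, detection filter, probe choice, array averaging, chip, replicate block, weights, variance model, threshold and left-out samples; the repeat in the Sox6 group and the values of single genes without EWAT C3, and the spread with 1 array per sample, were added after the data were seen.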

Additional observations from a re-analysis of the deposited data

Results flagged for a closer look

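For each gene named, the 4 samples of a tissue were checked for a sample far from the other 3, in every tissue where the gene was detected on at least 1 array. Of 276 such groups, 28 held one. Chance gives about 1 in 20 groups, but many of the genes were named for a spread or for EWAT C3 itself, so the count cannot be set against that rate. EWAT C3 accounted for 18 of them. It was high for Lcn2 at 12.13, Cdhr5 at 10.36, Pdzk1 at 10.06, Cldn2 at 9.83, Rsph1 at 9.77, Fbp2 at 9.47, Slc27a2 at 8.31, Hnf4a at 8.10, Fbp1 at 7.67, Cfi at 7.48, Cideb at 7.43, Cyp2d9 at 6.46, Crp at 5.6 and Ttr at 5.24, where each of the other 3 fat pads lay at 6.11 or less. It was low for Rgcc at 12.91, Pygl at 10.89, Pck1 at 8.55 and Tm7sf2 at 4.79.

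The other fat pads gave Dcn, decorin, at 13.53 in EWAT C4 against 14.04 to 14.12, and Pfkl at 9.53 in EWAT C2 against 9.97 to 9.99. Among livers, C1 was high for Clec4g at 10.86, H2-Aa at 9.03 and Hoxb7 at 5.05, and low for Gys2 at 9.06. Liver C4 was high for Adipoq at 5.55 and Aoc3 at 4.92, and low for C4bp at 11.82 against 11.88 to 11.89. Liver C2 was low for Slc27a5 at 12.94 against 13.05 to 13.07. The last 2 gaps are small on the log2 scale beside the difference between the tissues. No explanation of these samples was tested.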

How the results depend on the processing

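For 158 named genes, 36 lists and the counts and shares, 28 alternatives were run. Over genes and alternatives, 4351 values kept direction and call, 30 lost the call, 12 gained it and 26 turned. Of the list medians 16 turned. Another 190 kept direction but moved by at least the pooled SD of the list's mean level between samples of a tissue. The other 802 moved by less. Leaving out each sample in turn gave 6877 to 7444 called genes, 2703 to 2887 higher in liver and 4174 to 4557 in EWAT, 1613 to 1672 at least 4-fold, 739 to 768 of them in liver and 865 to 915 in EWAT, 10 to 11 opposite isozyme pairs, 16 to 18 lists with a median above 0, a difference in detected probes of -7.90 to -7.11 points, and one of 2.36 to 3.91 points in the share of the 100 brightest probes, which passed its test without EWAT C1 at 3.91 and, with 500 probes, at 8.72. Whether equal numbers are the same mouse is not known, and with the replicate block 7161 genes were called. Median scaling left 1626 genes higher in liver, an offset of 50 left 559 at least 4-fold higher in EWAT, and a test against a fold of 2 left 2450 genes, 1020 in liver and 1430 in EWAT, and 6 opposite isozyme pairs, since it asks for more than a difference from 0.

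The called genes whose sign turned were Hp (0.41) and Acadm (0.47) with each tissue normalized on its own, and Scara5 (0.39) and Tardbp (0.98) with the mean of a gene's probes, which point both ways. Genes that had not passed changed sign too. With median scaling these were Cyp2e1 at 0.11, Scd1 at 0.11, Esm1 at -0.018 and Pck1 at -0.32. With each tissue on its own they were Gadd45g at 0.45 and, now passing toward liver, Cyp2e1 at 0.80 (limma adjusted p = 2.33e-06) and Scd1 at 0.81 (limma adjusted p = 3.31e-06). With 1 array per sample they were Cyp2e1 at 0.016, Scd1 at 0.029 and Pck1 at -0.049, with chip as a term Scd1 at 0.0029, with array weights Scd1 at 0.0035, and with the mean of probes Pck1 at -0.0016. Leaving out samples gave -0.029 to 0.020 for Cyp2e1, -0.037 to 0.030 for Scd1, -0.17 to 0.99 for Esm1, -0.67 to 0.71 for Gadd45g and -0.13 to 0.31 for Pck1. List medians near 0 turned too. Each tissue on its own gave 0.30 for fatty acid and triglyceride synthesis, 0.36 for ribosomal proteins and 0.20 for the cell cycle. The cell cycle median was 0.0065 with cyclic loess and 6.4e-05 with the stricter detection filter. The proteasome gave -0.063 with median scaling and -0.0041 with chip as a term, and the respiratory chain -0.012 with chip as a term, -0.024 with 1 array per sample and -0.0090 with array weights. Without single samples they ran from -0.024 to 0.080 and from -0.044 to 0.026. The cause of these turns was not tested. Signal over background limits folds of genes dim in 1 tissue to lower bounds, and the top of the scale limits those bright in both.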

Other observations

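The 5 genes whose tissue difference depended on the oligonucleotide were named after the test. Fhit, a dinucleoside hydrolase, differed by 0.16 between liver and EWAT in the control samples and by -1.55 in the samples given the Sox6 oligonucleotide. Abcf1 differed by -0.14 and -1.02, Ndufv1, a subunit of respiratory complex I, by -0.32 and -1.23, Ppp4r1l-ps by 0.37 and -0.76, and Atg16l2 by 1.80 and 0.49. Their adjusted p-values from limma's interaction term lay between 0.0362 and 0.0496.

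Actb, beta-actin, often used as a reference gene between samples, had 5 detected probes. Of these, 2 were higher in liver, with differences of 2.45 and 2.43, and 3 were higher in EWAT, with -0.73, -0.83 and -1.71 (limma adjusted p of 3.63e-07 to 0.00566). The cause of the split was not tested.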
